A study of Sus scrofa with 8 samples.

Results

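Matrix metalloproteinases (MMPs) are zinc enzymes that cut collagens and other proteins of the extracellular matrix, and the tissue inhibitors of metalloproteinases (TIMPs) bind and block them. The plasminogen activators PLAU (urokinase type) and PLAT (tissue type) turn plasminogen into plasmin, a serine protease that cuts fibrin and activates several MMP precursors. In the uterus these proteins take part in the remodelling of the stroma and the glands, and in the pig, where the conceptus attaches to the uterine surface without invading it, inhibitors and proteases are both made by the endometrium. The members described here were all probesets of MMP1, MMP2, MMP3, MMP7, MMP9, TIMP1, TIMP2, TIMP3, PLAU and PLAT in the annotation of the array, 16 probesets of 10 genes among the 23999 tested, a choice of genes by function that used no threshold on the values. MMP3 had 4 probesets, TIMP3 had 3, TIMP2 had 2 and each of the other 7 genes had 1.

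Endometrium came from 4 Meishan and 4 Yorkshire gilts, pregnant after natural mating to boars of their own breed and killed on day 12 of gestation, and each gilt gave 1 array. Matings took place at the second or the third estrus, the tissue was dissected from the uterine lumen near the junction of the horns, only females with elongated conceptuses had been used, and the age of the gilts is not given in the sources used here. The question was which transcripts differ between a prolific Chinese breed and a European breed at the time when the conceptus elongates. A probeset is a set of short probes for 1 transcript sequence, and its signal is a linear intensity. Values below are signals scaled so that all arrays share 1 median (centred signals), means are geometric means of 4 gilts, and a difference is on the log2 scale, Meishan minus Yorkshire. A probeset was called at a limma adjusted p under 0.1.

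The deposited median signals of the arrays were alike, at 168 to 195 in Meishan and 171 to 187 in Yorkshire arrays. Control probesets for bacterial and phage transcripts added at hybridization differed by 1.00 toward Meishan (18 probesets, exact permutation test, two-sided, p = 0.0286, the smallest that 8 gilts allow). Whether this bears on the members was not tested. No gene measured from the lists of epithelium, stroma, smooth muscle, endothelium and macrophage markers was below a signal of 64 in every gilt. The tissue is a bulk sample, in which fewer cells of a type and less RNA per cell cannot be told apart. Dim probesets leaned toward Meishan, with a median log2 difference of 0.29 among the 6404 probesets below 64 in both breeds and -0.04 among the 16017 at 64 or more in both, and a signal below 64 is treated here as near background. The 100 brightest probesets leaned the same way, with a median of 0.40 and 99 of them toward Meishan.

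None of the 16 probesets was called, where 0.908% of all tested probesets were (0.404% toward Meishan and 0.504% toward Yorkshire). An unadjusted limma p under 0.05 was reached by 2 of the 16, MMP7 toward Yorkshire and 1 probeset of MMP3 toward Meishan (14.8% of all tested probesets, 7.79% toward Meishan and 6.96% toward Yorkshire). Breeds were fully separated at 1 of the 16, the same MMP3 probeset (10.1% of all tested, 5.01% with Meishan and 5.09% with Yorkshire above). The median log2 difference over the 16 was 0.20 and that over all probesets 0.02. It was 0.66 over the 6 members below 64 in both breeds and 0.06 over the 8 at 64 or more in both. Both counts of the members, 2 and 1 of 16, are close to what the shares of the whole array would give. They are not read as a result about the members. Levels of different probesets cannot be set against each other on this platform, so the genes are compared only between gilts.

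**Figure D1:**
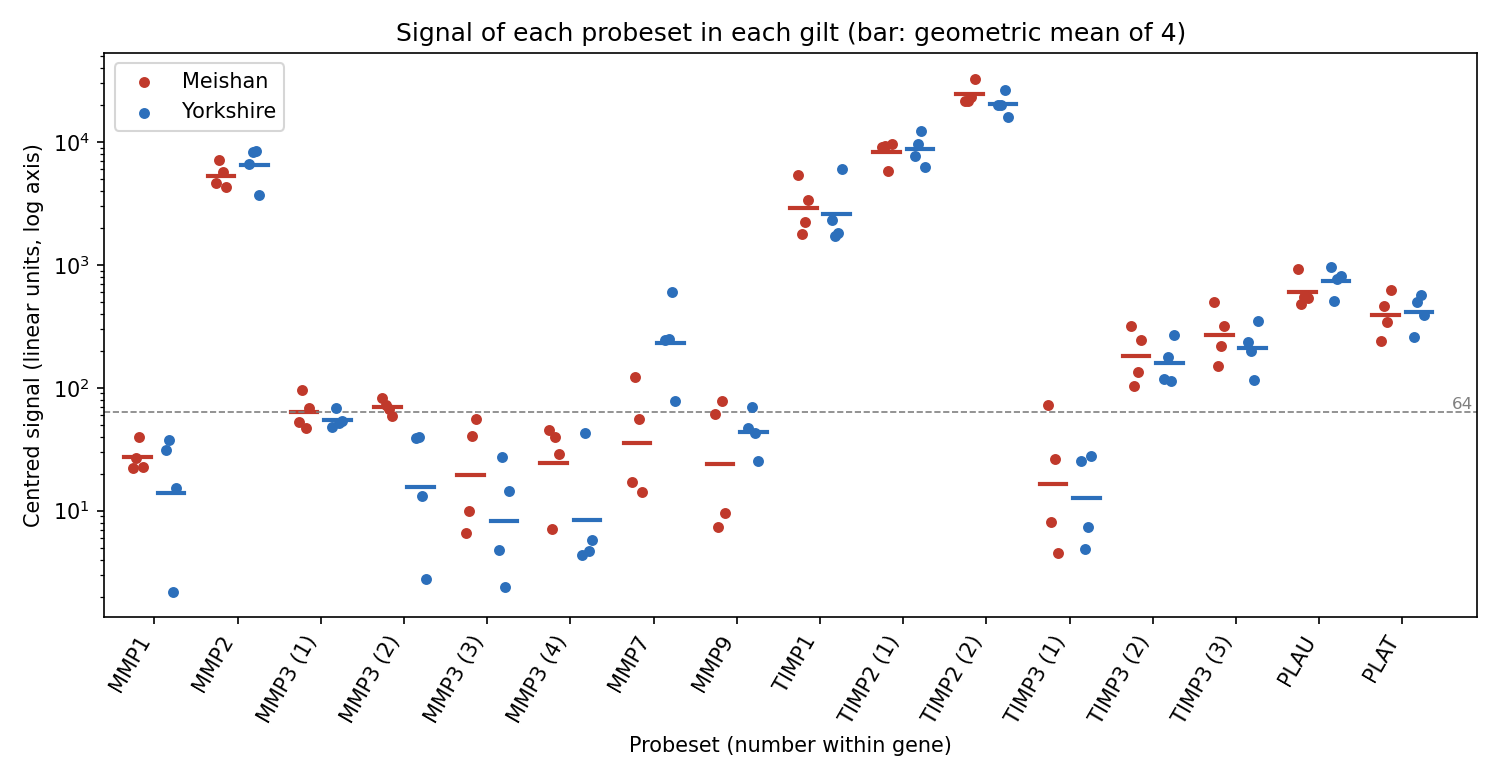
Centred signal (linear units on a log axis) of the 16 probesets in each gilt, with Meishan gilts at the left and Yorkshire gilts at the right of each pair, horizontal bars for the geometric mean of 4 gilts and a dashed line at 64. Probesets of a gene are numbered in the alphabetical order of their names. The breeds overlap everywhere but at MMP3 (2), and MMP1, MMP9, MMP3 (1), MMP3 (3), MMP3 (4) and TIMP3 (1) have means below 64 in both breeds.

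MMP7, matrilysin, a small metalloproteinase made mainly by epithelial cells, showed the largest breed difference of the 16. Its probeset (Ssc.548.1.S1_a_at) had signals of 17.1, 122, 56.1 and 14.15 in Meishan gilts 1 to 4, against 245, 249, 603.5 and 78.4 in Yorkshire gilts 1 to 4. All 4 Yorkshire gilts and only 1 Meishan gilt, gilt 2, exceeded 64, but the breeds overlapped because Meishan gilt 2 lay above Yorkshire gilt 4. The mean was 35.85 in Meishan and 231.8 in Yorkshire, a log2 difference of -2.69 (SE 0.83, 95% interval -4.60 to -0.78, n = 4 gilts per breed, limma adjusted p = 0.203). As the Meishan mean is near background, no fold is given. With signals below 32 set to 32 the difference was -2.17.

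The spread of MMP7 within breeds was wide. The standard deviation of its log2 signal was 1.47 in Meishan and 1.21 in Yorkshire gilts, and the pooled value of 1.34 compares with a median of 0.51 over probesets of like brightness, when all were divided by mean signal into 10 classes of equal size. Leaving out 1 gilt gave differences between -3.28, without Meishan gilt 2, and -2.23, without Yorkshire gilt 3, with limma adjusted p from 0.161 to 0.374. Epithelium markers overlapped between the breeds in their sum. The summed signal of the 7 measured epithelium markers of 8 lay between 26270 and 43910 in Meishan gilts and between 28470 and 42020 in Yorkshire gilts. The summed signal of 8 measured conceptus markers of 10 lay between 406 and 1508 in Meishan gilts and between 462 and 7289 in Yorkshire gilts, with the highest values in Yorkshire gilts 1 and 3, where IFNG, an interferon that the pig conceptus secretes, was at 4604 and 6286. CYP19A1 and STAR, which act in steroid synthesis in the conceptus, were below 64 in all 8 gilts at their brightest probesets, and 1 other CYP19A1 probeset reached 81.3 in Meishan gilt 3. The part of the epithelium and conceptus markers in the MMP7 result was not tested.

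Over the 8 gilts, 5 named genes with means of at least 64 in both breeds followed MMP7 most closely among 7756 such probesets. They were KHNYN (Pearson r = 0.98), FEZ2 and PLBD2 (0.977 each), ITM2A, a small membrane protein (0.975), and MAN2B1, the lysosomal alpha-mannosidase (0.974). The correlations were picked as the highest of 7756 and serve only as a description. Computed on deviations from the breed means, they lay between 0.956 for FEZ2 and 0.973 for PLBD2, which the choice of the highest values favours too. ITM2A, with signals of 647, 1193, 740 and 447 in Meishan gilts 1 to 4, against 1308, 1330, 1920 and 871 in Yorkshire gilts 1 to 4, ranked all 8 gilts as MMP7 did.

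MMP3, stromelysin 1, which cuts proteoglycans and activates other MMPs, was close to or below 64 at all 4 of its probesets. In the names of the array, an A or S before the last number marks the orientation of the sequence the probes were designed on, and 2 source sequences of MMP3 each had both. The first S probeset (Ssc.15927.1.S1_at) had 83.1, 72.5, 67.1 and 58.9 in Meishan gilts 1 to 4, against 39.4, 39.5, 13.2 and 2.79 in Yorkshire gilts 1 to 4. Every Meishan gilt lay above every Yorkshire gilt, and 3 Meishan gilts and no Yorkshire gilt exceeded 64. The log2 difference was 2.17 (SE 0.80, 95% interval 0.34 to 4.01, limma adjusted p = 0.266). It was 1.35 without Yorkshire gilt 4, the dimmest, and 0.98 with signals below 32 set to 32, where the spread was narrower and the probeset was called (limma adjusted p = 0.03, in an alternative that called 863 of all probesets in place of 218). No other alternative called it, and without 1 gilt its adjusted p ranged from 0.236 to 0.411.

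The other MMP3 probesets did not share this separation. The A probeset of the same sequence (Ssc.15927.1.A1_at) averaged 63.8 in Meishan and 54.8 in Yorkshire, with overlapping gilts and a log2 difference of 0.22 (SE 0.26). The probesets of the other sequence stayed below 64 in all 8 gilts. Their means were 19.6 in Meishan and 8.24 in Yorkshire at the A probeset (Ssc.15927.2.A1_at) and 24.6 in Meishan and 8.41 in Yorkshire at the S probeset (Ssc.15927.2.S1_at), with log2 differences of 1.25 (SE 0.95) and 1.55 (SE 0.87) and limma adjusted p of 0.587 and 0.451. All 4 probesets thus leaned toward Meishan, as the median of all probesets in their brightness classes did, by 0.22 to 0.46.

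MMP1, interstitial collagenase, stayed below 64 in all 8 gilts. Its signals (Ssc.16013.1.S1_at) were 22.2, 26.8, 40.0 and 22.8 in Meishan gilts 1 to 4, against 31.0, 37.4, 2.2 and 15.3 in Yorkshire gilts 1 to 4. The log2 difference of 0.95 (SE 0.83, limma adjusted p = 0.644) came mainly from Yorkshire gilt 3, without which it was 0.06. MMP9, gelatinase B, an enzyme of neutrophils, macrophages and other cells that cuts basement membrane collagen, was also near background. Its probeset (Ssc.16790.1.S1_at) had 61.0, 7.4, 78.4 and 9.6 in Meishan gilts 1 to 4, against 46.9, 70.3, 42.85 and 25.55 in Yorkshire gilts 1 to 4. Meishan gilts 1 and 3 lay among or above the Yorkshire gilts and Meishan gilts 2 and 4 below all of them, and the log2 difference was -0.85 (SE 0.82, limma adjusted p = 0.674). With signals below 32 set to 32 it was 0.03, on the other side of 0. The summed signal of the 4 measured neutrophil markers of 7 lay between 7076 and 26840 in Meishan gilts and between 8494 and 24570 in Yorkshire gilts, and ELANE, neutrophil elastase, was below 64 in all of them. S100A9 gave most of each sum, with 6371 to 25430 in Meishan gilts and 7924 to 23700 in Yorkshire gilts.

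MMP2, gelatinase A, which stromal cells secrete and which cuts denatured collagen, gave a strong signal in every gilt. Its probeset (Ssc.5713.1.S1_at) had 4623, 7099, 5714 and 4266 in Meishan gilts 1 to 4, against 6600, 8255, 8510 and 3739 in Yorkshire gilts 1 to 4. The lowest and the highest values were both from Yorkshire, and the difference of -0.28 (SE 0.31, 95% interval -0.99 to 0.44, limma adjusted p = 0.722) was smaller than the spread within breeds. That interval includes changes of up to about 1 on the log2 scale toward Yorkshire. The sum of the stroma markers did not separate the breeds cleanly either. For 7 measured genes of 9 it lay between 60530 and 66950 in Meishan gilts and between 50950 and 61650 in Yorkshire gilts. At their brightest probesets VIM (0.47) and DCN (0.27) separated the gilts toward Meishan and PDGFRB (-0.31) toward Yorkshire. COL1A2, COL3A1, LUM and THY1 overlapped there.

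**Figure D2:**
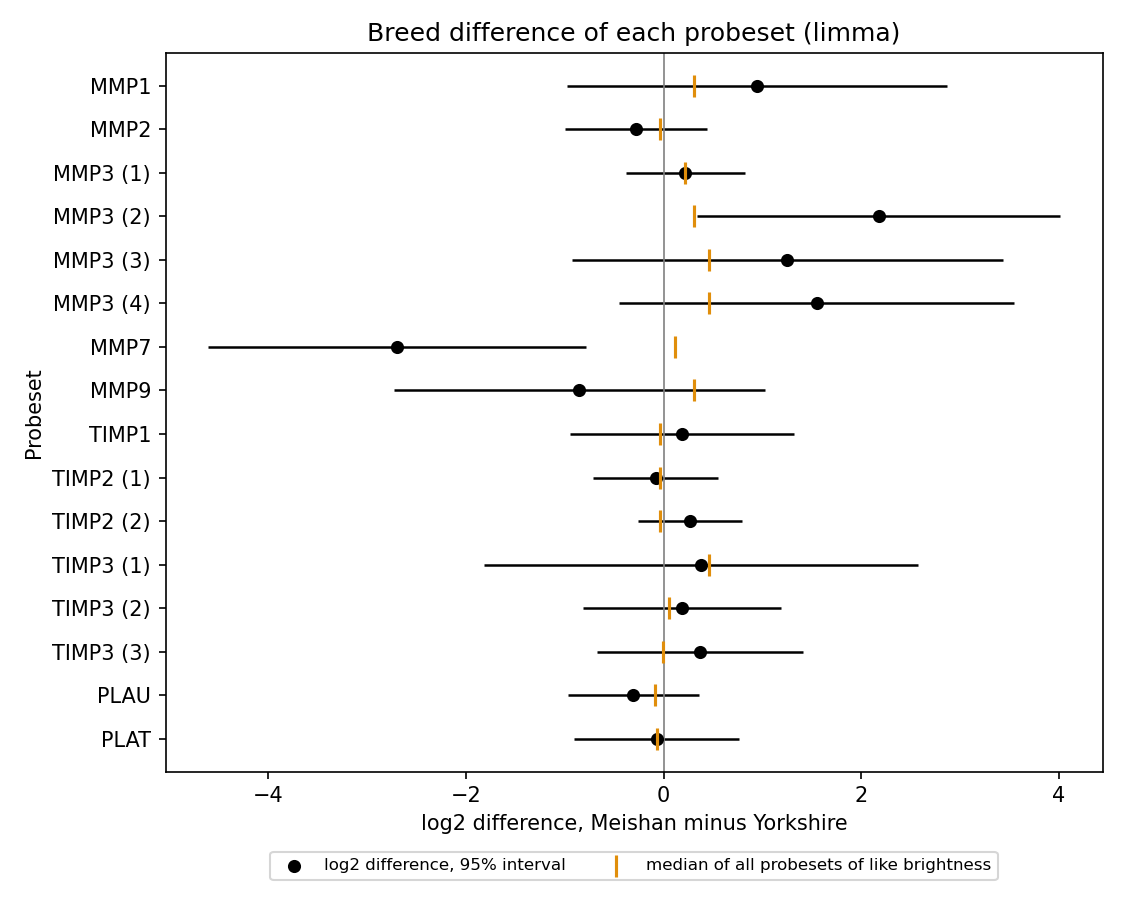
Log2 difference (Meishan minus Yorkshire) of each of the 16 probesets with its 95% interval from limma, and an orange tick at the median difference of all probesets in the same brightness class. The intervals of MMP7 and MMP3 (2) leave out 0 before adjustment and those of the other 14 include it, and the dim probesets of MMP1 and MMP3 lie on the Meishan side, where the ticks of dim probesets also lie.

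TIMP1, an inhibitor of most secreted MMPs that also binds the MMP9 precursor, differed far more between gilts of a breed than between breeds. Its probeset (Ssc.11784.1.S1_at) had 5401, 1777, 2252 and 3392 in Meishan gilts 1 to 4, against 2329, 1729, 1815 and 6020 in Yorkshire gilts 1 to 4. Meishan gilt 1 and Yorkshire gilt 4 stood above the other gilts of their breeds. The means of 2926 in Meishan and 2575 in Yorkshire gave a log2 difference of 0.18 (SE 0.49, 95% interval -0.95 to 1.32, limma adjusted p = 0.893). Without Meishan gilt 1 it was -0.11 and without Yorkshire gilt 4 it was 0.59. The pooled standard deviation within breeds was 0.77, against a median of 0.27 in its brightness class.

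TIMP2, the inhibitor that takes part in the activation of the MMP2 precursor at the cell surface, was the steadiest of the inhibitors. At its first probeset (Ssc.1082.1.S1_at) the signals were 9064, 9254, 5801 and 9590 in Meishan gilts 1 to 4, against 7747, 9609, 12400 and 6253 in Yorkshire gilts 1 to 4. The second (Ssc.11257.1.S1_at) had 21480, 21710, 23240 and 32780 in Meishan gilts 1 to 4, against 19940, 19910, 26710 and 16020 in Yorkshire gilts 1 to 4. The 2 probesets ranked the gilts differently, with Meishan gilt 3 lowest of its breed at the first and second highest at the other. Their log2 differences were -0.08 (SE 0.27, 95% interval -0.71 to 0.56) and 0.27 (SE 0.23, 95% interval -0.26 to 0.80), with limma adjusted p of 0.923 and 0.638. After quantile normalization the second was -0.13, so its direction depended on the normalization.

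TIMP3, which binds to the matrix and inhibits ADAM proteases as well as MMPs, was measured above background at 2 of its 3 probesets. At the brighter (Ssc.9661.1.S1_at) the signals were 501.5, 150, 220 and 321 in Meishan gilts 1 to 4, against 236, 201, 116 and 349 in Yorkshire gilts 1 to 4. At the other (Ssc.16028.1.S1_at) they were 319, 103, 134 and 244 in Meishan gilts 1 to 4, against 117, 179, 114 and 268 in Yorkshire gilts 1 to 4. Meishan gilts 1 and 4 and Yorkshire gilt 4 were the high gilts at both. The log2 differences were 0.37 (SE 0.45) and 0.18 (SE 0.43), with limma adjusted p of 0.749 and 0.878. The A probeset of TIMP3 (Ssc.16028.1.A1_at) averaged 16.35 in Meishan and 12.6 in Yorkshire and exceeded 64 only in Meishan gilt 1, at 72.5.

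PLAU, which binds its receptor on migrating cells, had signals (Ssc.11194.1.S1_at) of 927.5, 480, 548 and 541 in Meishan gilts 1 to 4, against 962, 507, 774 and 813 in Yorkshire gilts 1 to 4. Of the Meishan gilts only gilt 1 reached the level of the upper Yorkshire gilts. The difference was -0.30 (SE 0.29, 95% interval -0.96 to 0.36, limma adjusted p = 0.67), and it was -0.51 without Meishan gilt 1. PLAT, which vessels release to dissolve fibrin, had signals (Ssc.196.1.S1_at) of 240, 464, 343 and 621 in Meishan gilts 1 to 4, against 258, 500, 573 and 388 in Yorkshire gilts 1 to 4. The ranges nearly coincided, and the difference of -0.07 (SE 0.36, 95% interval -0.90 to 0.77, limma adjusted p = 0.95) changed side without Meishan gilt 1, Yorkshire gilt 2 or Yorkshire gilt 3 and under 3 alternatives. The summed signal of the 5 endothelium markers separated the breeds, with 4853 to 4954 in Meishan gilts, against 5149 to 6873 in Yorkshire gilts. At their brightest probesets CDH5 (-0.58), VWF (-0.53), TEK (-0.32) and KDR (-0.09) lay toward Yorkshire and PECAM1 (0.11) toward Meishan. Only CDH5 separated the gilts there, and its other probeset had 0.08 with overlapping gilts. The part of the summed markers in the PLAT values was not tested.

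The balance of a protease and its inhibitor was compared within arrays, where a scaling factor cancels, as the log2 ratio of their brightest probesets in each gilt. Of the 5 ratios, that of MMP7 to TIMP1 differed most, by -2.88 between Meishan and Yorkshire (exact permutation test over 70 assignments, two-sided, p = 0.114, adjusted p = 0.429 over 5 ratios). That of MMP2 to TIMP2 was -2.22, -1.61, -2.02 and -2.94 in Meishan gilts 1 to 4, against -1.60, -1.27, -1.65 and -2.10 in Yorkshire gilts 1 to 4. It differed by -0.55 (exact permutation test, two-sided, p = 0.171, adjusted p = 0.429), and the breeds overlapped. The size of this difference depended on the setting, though its direction did not. It was -0.15 after quantile normalization, -0.40 after cyclic loess normalization and -0.37 with the 2 TIMP2 probesets averaged. Without 1 gilt it lay between -0.74 and -0.30. The ratios of MMP9, MMP1 and MMP3 to TIMP1 differed by -1.04, 0.77 and 0.04 with adjusted p from 0.524 to 0.943 in the same exact test. These 3 ratios moved with the setting too, MMP9 over TIMP1 to -0.16 with signals below 32 set to 32 and MMP1 over TIMP1 to 0.04 without Yorkshire gilt 3. MMP3 over TIMP1 moved to 1.11 when its probesets were averaged. The smallest p that the test allows is 0.0286.

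Some of the genes varied together over the gilts. Over the 8 gilts the 8 probesets with means of at least 64 in both breeds and that of MMP7 formed 36 pairs, a comparison chosen after the values were seen. MMP2 and TIMP1 ran in opposite directions (Pearson r = -0.915, exact permutation p = 0.00146, adjusted p = 0.0351, Spearman rho = -0.881, exact permutation p = 0.00724, adjusted p = 0.0652). Without Yorkshire gilt 4 and Meishan gilt 4, the gilts farthest from the median of MMP2, r was -0.89, and on deviations from the breed means it was -0.931. TIMP1 and TIMP3 at its brighter probeset ran together (r = 0.883, exact permutation p = 0.00255, adjusted p = 0.0351, rho = 0.881, exact permutation p = 0.00724, adjusted p = 0.0652), with r = 0.83 without Yorkshire gilt 4 and Meishan gilt 1 and 0.89 on deviations.

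The 2 brighter TIMP3 probesets also followed each other (r = 0.886, exact permutation p = 0.00293, adjusted p = 0.0351, rho = 0.881, exact permutation p = 0.00724, adjusted p = 0.0652), with r = 0.732 without Meishan gilt 1 and Yorkshire gilt 4. The 2 TIMP2 probesets did not to the same degree (r = 0.517, exact permutation p = 0.182, adjusted p = 0.421, rho = 0.333, exact permutation p = 0.428, adjusted p = 0.603, and r = 0.5 without Meishan gilt 3 and Yorkshire gilt 4). In all, 3 of the 36 pairs had an adjusted p under 0.05 for r, 8 an unadjusted one and 0 an adjusted p under 0.05 for rho, where 7 had an unadjusted one. No such count was made for pairs of other probesets, so these counts are not read as particular to these genes. Genes of other functions, named below, followed TIMP1 as closely. A breed holds 4 gilts, too few for a correlation of its own. With 7 gilts r stayed between -0.942 and -0.867 for MMP2 with TIMP1, with exact permutation adjusted p from 0.0679 to 0.124.

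MMP7 lay on the side of MMP2 in this pattern. Over the gilts it varied together with MMP2 (r = 0.804, exact permutation p = 0.0195, adjusted p = 0.101, rho = 0.833, exact permutation p = 0.0154, adjusted p = 0.111, and r = 0.941 without Yorkshire gilt 4 and Meishan gilt 4). Its correlation with TIMP1 was -0.666 (exact permutation p = 0.0766, adjusted p = 0.276, rho = -0.643, exact permutation p = 0.0962, adjusted p = 0.289, and r = -0.679 without Meishan gilt 4 and Yorkshire gilt 3) and on deviations from the breed means -0.869. Meishan gilts 1 and 4 and Yorkshire gilt 4 had the least MMP7 and the least MMP2 of their breeds and the most TIMP1 and TIMP3. The same gilts were high in SERPINB2, an inhibitor of PLAU and PLAT of the serpin family, named here after its values were seen. Its signals were 7309, 49.7, 57.3 and 260 in Meishan gilts 1 to 4, against 37.2, 59.4, 129 and 2958 in Yorkshire gilts 1 to 4. Its log2 standard deviation within breeds was 3.11, and its breed difference was 0.67 (SE 1.90, limma adjusted p = 0.9).

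**Figure D3:**
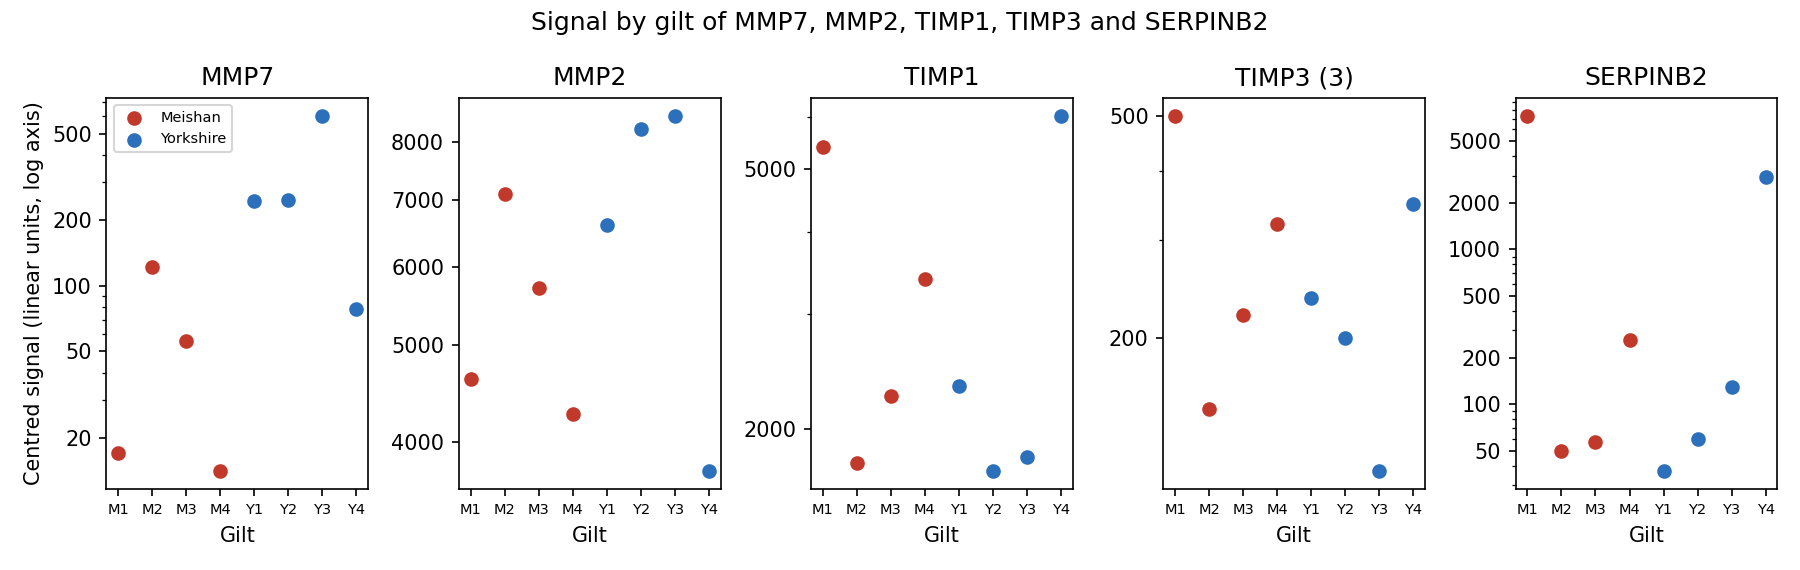
Centred signal (linear units on log axes that differ between panels) by gilt, with M1 to M4 for Meishan and Y1 to Y4 for Yorkshire. MMP7 and MMP2 are lowest and TIMP1, TIMP3 (3) and SERPINB2 highest in M1, M4 and Y4 among the gilts of their breeds, TIMP1 at 5401 in M1 and 6020 in Y4.

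Among all named probesets of sufficient signal, those that followed TIMP1 most closely over the gilts were TMEM100 (r = 0.981), GNL3, a nucleolar protein (0.98), PSMD12, a subunit of the proteasome (0.976), HIF1A, the transcription factor of the response to low oxygen (0.975), and MEMO1 (0.973). They too were the highest of 7756 and are a description, and TIMP1 was picked for this after its values were seen. HIF1A had 907, 253, 294 and 464 in Meishan gilts 1 to 4, against 359, 295, 204 and 974 in Yorkshire gilts 1 to 4. The sum of the 4 measured smooth muscle markers of 5 was also highest in these gilts, with 19180, 7573, 14330 and 17460 in Meishan gilts 1 to 4, against 15100, 11790, 14640 and 20060 in Yorkshire gilts 1 to 4. That of the epithelium markers was highest in Meishan gilt 1, at 43910, and Yorkshire gilt 4, at 42020, and the neutrophil sum was lowest in them, at 7076 and 8494. Stroma markers, at 60530 and 50950, and endothelium markers, at 4853 and 5149, were likewise lowest of their breeds in Meishan gilt 1 and Yorkshire gilt 4. The neutrophil sum was nearly all S100A9, at 6371 and 7924 in these gilts. S100A8 was lowest in Meishan gilt 2, at 469, and Yorkshire gilt 3, at 465. LTF was lowest in Meishan gilt 3, at 29.9, and Yorkshire gilt 2, at 2.74. ELANE, near background, was lowest in Meishan gilt 1, at 9.58, and Yorkshire gilt 1, at 14.7. The conceptus sum was lowest in the gilts low in MMP7 and MMP2, with 406 and 714 in Meishan gilts 1 and 4, against 1508 and 1003 in Meishan gilts 2 and 3, and with 462 in Yorkshire gilt 4, against 801 to 7289 in the other Yorkshire gilts. These differences in the sum came largely from 1 gene, IFNG. It had 14.2, 904, 304 and 114 in Meishan gilts 1 to 4, against 4604, 221, 6286 and 33.5 in Yorkshire gilts 1 to 4. The part of these markers in the pattern among gilts was not tested.

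The other genes of these systems were taken from 5 lists, with 64 probesets of 36 genes measured among 80 genes, and 1 of the 64 was called, against 0.908% of all tested. It belonged to ADAM9, a membrane-bound metalloproteinase that cuts proteins off the cell surface. This probeset (Ssc.29157.1.A1_at) had 213, 232, 254 and 127 in Meishan gilts 1 to 4, against 854, 1050, 638 and 702 in Yorkshire gilts 1 to 4. The lowest Yorkshire gilt was above the highest Meishan gilt by more than 2-fold. The means, 199.8 in Meishan and 796 in Yorkshire, stood 3.98-fold apart (-1.99 on the log2 scale, SE 0.28, limma adjusted p = 0.0388). The other 3 ADAM9 probesets had differences of -0.43 (SE 0.39), -0.74 (SE 0.76) and 0.29 (SE 0.24) with overlapping gilts, so the call rests on 1 of 4 probesets. It held when any 1 gilt was left out, with limma adjusted p from 0.0589 to 0.0978, and was lost with the replicate number as a block (0.157). Gilts did not overlap at 2 of the 16 probesets of ADAM and ADAMTS proteases with Meishan above and at 1 with Yorkshire above. Of all tested, 5.01% and 5.09% did so. At an unadjusted limma p under 0.05, 2 of the 16 lay toward Meishan and 2 toward Yorkshire, against 7.79% and 6.96% of all tested. The pair toward Meishan were both of ADAM17, the sheddase of tumour necrosis factor, named here after its values were seen. They had means of 66.2 in Meishan and 20.7 in Yorkshire (1.68, SE 0.45, limma adjusted p = 0.17) and 214.8 in Meishan and 122.8 in Yorkshire (0.81, SE 0.24, limma adjusted p = 0.191) without overlap, while its other 2 probesets had -0.27 (SE 0.28) and 0.38 (SE 0.49).

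Among the other metalloproteinases, MMP14, the membrane-bound activator of the MMP2 precursor, averaged 386.5 in Meishan and 384 in Yorkshire gilts (0.01, SE 0.25, 95% interval -0.56 to 0.58). MMP20, the enzyme of tooth enamel, was below 64 in all 8 gilts with a difference of 1.77 (SE 0.87). The probesets of MMP13, collagenase 3, had means of 37.4 in Meishan and 17.1 in Yorkshire (1.13, SE 0.58) and 64.9 in Meishan and 59.1 in Yorkshire (0.13, SE 0.52). In the RefSeq annotation of the pig assembly Sscrofa11.1 the genes MMP7, MMP20, MMP27, MMP8, MMP1, MMP3, MMP12 and MMP13 follow one another in this order. Of the 5 measured here MMP7 lay toward Yorkshire and the other 4 toward Meishan, and none was called. Those 4 had means close to or below 64. Over the 6404 probesets below 64 in both breeds, 4098 lay toward Meishan. Of the 12 probesets of other regulators 9 lay toward Yorkshire, 2 of them at an unadjusted limma p under 0.05. Over all 23999 probesets 11580 lay toward Yorkshire, and 6.96% did so at that p. One was A2M, alpha-2-macroglobulin, which traps proteases of all classes, with means of 3543 in Meishan and 5937 in Yorkshire (-0.74, SE 0.27, limma adjusted p = 0.268), while its other 2 probesets had 0.31 (SE 0.32) and -0.36 (SE 0.40). The other was SDC1, syndecan 1, a proteoglycan shed by MMPs, with 40.3 in Meishan and 99.7 in Yorkshire (-1.31, SE 0.47, limma adjusted p = 0.256), while its other 3 probesets had -1.04 (SE 0.53), -0.35 (SE 0.42) and -0.01 (SE 0.49) with overlapping gilts. TIMP4 and CD151, a tetraspanin, had -0.996 (SE 0.61) and 0.25 (SE 0.18) at their probesets of lowest p.

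None of the 10 probesets of other plasminogen system genes reached an unadjusted limma p under 0.05, where 14.8% of all tested did, and 4 lay toward Meishan and 6 toward Yorkshire. By p they were led by SERPINE2, a serpin that blocks PLAU and thrombin (means of 128 in Meishan and 154 in Yorkshire, -0.27, SE 0.17), CLEC3B, tetranectin, which binds plasminogen (-0.44, SE 0.41), F12 (-0.73, SE 0.80) and ANXA2, a receptor for PLAT and plasminogen (0.25, SE 0.31). Of 22 probesets of matrix proteins that these enzymes cut, 6 lay toward Yorkshire and 0 toward Meishan at an unadjusted limma p under 0.05, against 6.96% and 7.79% of all tested. They were 3 of the 5 probesets of VCAN, the proteoglycan versican, 2 of the 4 of FN1, fibronectin, and 1 of the 2 of COL1A2. VCAN averaged 330 in Meishan and 674 in Yorkshire (-1.03, SE 0.24, limma adjusted p = 0.13) and FN1 2715 in Meishan and 5282 in Yorkshire (-0.96, SE 0.27, limma adjusted p = 0.179) at their probesets of lowest p, where every Yorkshire gilt lay above every Meishan gilt. The other 2 FN1 probesets, with means below 64, had 1.94 (SE 1.23) and 1.12 (SE 0.97), the other COL1A2 probeset had 0.24 (SE 0.41) and VTN, vitronectin, -0.89 (SE 0.47). The median log2 difference was -0.06 over the substrates, -0.36 over the other regulators, -0.12 over the plasminogen system, -0.16 over ADAM and ADAMTS proteases and 0.63 over the 4 probesets of other metalloproteinases, against 0.02 over all probesets. Of those 4 probesets 2 were below 64 in both breeds, and the median of all such dim probesets was 0.29.

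**Figure D4:**
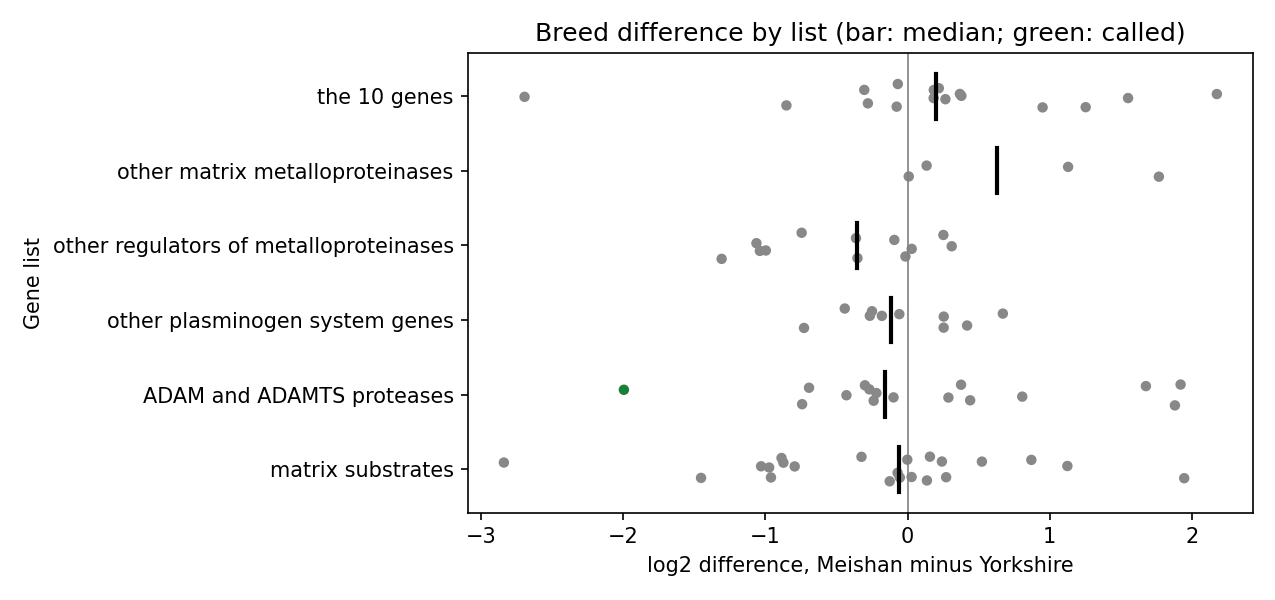
Log2 difference (Meishan minus Yorkshire) of the 16 probesets of the 10 genes and of the probesets of 5 related lists, with vertical bars at the median of each list and the called probeset in green. ADAM9 at -1.99 is the called point, and MMP7 at -2.69 and MMP3 at 2.17 are the outermost points of the 10 genes. Points are spread vertically at random for legibility.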

How the data were processed

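Per the labels and the study's methods, endometrial RNA of 4 Meishan and 4 Yorkshire gilts was hybridized to Affymetrix porcine arrays, and the authors converted the scans to linear signals with GCOS 1.2. The deposited intensities are these signals for 24123 probesets. After removal of 124 controls, 23999 were put on the log2 scale, centred on the median of each array and fitted with limma 3.58.1 in R 4.3.3 (breed as the only term, moderated variance, prior degrees of freedom 2.09, Benjamini-Hochberg over all 23999, call at 0.1). Symbols came from the platform annotation (10069 probesets with 1 symbol, 198 with several, 13732 with none), and all 16 members matched the current RefSeq symbol. The fit was tested on simulated data with 200 of 23999 probesets changed. It called 0 of the 200 at a log2 change of 1, 120 at 2 and 177 at 4. Whether these counts carry over to the members was not tested. A member that was not called may still differ by an amount within its limma interval. For the 8 members at 64 or more in both breeds, no interval reached below -0.99 (MMP2) or above 1.41 (TIMP3). Changes of 2 and 4 lay outside these. The intervals of MMP7 (-4.60 to -0.78) and of the first S probeset of MMP3 (0.34 to 4.01) reached 4 in size. The members and lists were chosen with earlier results of these data known. Named are all member probesets, the called probesets or up to 4 genes of lowest p of each list, the 5 probesets most like the member of lowest p, and those said to be chosen later. Alternatives were no scaling, quantile and cyclic loess normalization, signals of at least 64 in a breed, a floor of 32, an intensity trend, an unmoderated model, array weights, a 0.05 threshold, Storey q-values, blocking on replicate number, ratios of gene means over probesets, and leaving out each gilt. Detection calls were not used. Precision is limited by having 8 arrays, and p-values measure the spread between gilts. Ratios and correlations were tested by exact permutation. Sequences of the members are not given here.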

Additional observations from a re-analysis of the deposited data

Results flagged for a closer look

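In 2 of the 42 groups of 4 gilts examined, each breed at each of the 16 probesets and the 5 ratios, 1 gilt stood apart from the other 3 by more than the 95% critical value of Dixon's gap ratio, which chance does in about 1 group of 20. At the second S probeset of MMP3 (Ssc.15927.2.S1_at), Yorkshire gilt 2 had a signal of 42.6, against 4.34 to 5.78 in the other Yorkshire gilts, all of them near background. At the first TIMP2 probeset (Ssc.1082.1.S1_at), Meishan gilt 3 had 5801, against 9064 to 9590 in the other Meishan gilts, and without it the breed difference was 0.09 in place of -0.08. At the second TIMP2 probeset the same gilt, at 23240, was not apart.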

How the results depend on the processing

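Of all probesets, 218 were called, against 760 with signals of at least 64, 863 with the floor of 32, 626 with an intensity trend, 497 with array weights, 532 with Storey q-values and 60 at an adjusted p under 0.05. Leaving out 1 gilt gave 72 (without Meishan 4) to 205 (without Meishan 1), and 89 to 158 without any other gilt. Of the members, 0 were called in these alternatives, except 1 (MMP3) with the floor, and 0 without any 1 gilt, where limma gave 2 at an unadjusted p under 0.05 with all gilts. Of the related lists, 1 was called, against 4 with signals of at least 64, 4 with the floor, 3 with the trend, 2 with weights and 2 with Storey q-values, and 1 to 2 without 1 gilt (2 without Meishan 4).

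Samples with the same replicate number did not deviate together (correlations of -0.0561 to 0.089), so the numbers pair nothing. With the replicate block 0 of all probesets, 0 of the members and 0 of the related lists were called (3327 of all probesets and 2 members at an unadjusted p under 0.05), and ADAM9 kept -1.99 at an adjusted p of 0.157.

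Directions changed for TIMP2 (Ssc.11257.1.S1_at) under quantile normalization (-0.13), PLAT under quantile (0.032), loess (0.014) and weights (0.10), MMP9 with the floor (0.029), MMP3 over TIMP1 under quantile (-0.25) and loess (-0.22) and MMP1 over TIMP1 with the floor (-0.16). Without 1 gilt the range crossed 0 for PLAT (-0.29 to 0.17), TIMP1 (-0.11 to 0.59), TIMP2 at its first probeset (-0.24 to 0.094), TIMP3, with probesets in the order of their names, at its first (-0.34 to 0.99) and second (-0.089 to 0.46) and MMP3 over TIMP1 (-0.40 to 0.42). The correlations of TIMP1 and of the second TIMP3 probeset with the third TIMP3 probeset were 0.876 and 0.878 under quantile normalization (exact permutation adjusted p = 0.0536 for both). Without 1 gilt r ranged from -0.942 to -0.867 for MMP2 with TIMP1, from 0.83 to 0.923 for TIMP1 with TIMP3 and from 0.822 to 0.941 between TIMP3 probesets. The exact permutation adjusted p then reached 0.124, 0.145 and 0.196, and stayed under 0.05 only without Yorkshire 4 for TIMP1 with TIMP3 and without Yorkshire 2 between TIMP3 probesets (0.0464 for each). The cause of these changes was not tested. The other breed differences of members and ratios kept their direction and, but for MMP3 with the floor, their side of the threshold in the alternatives run. Signals near background limit what can be said of MMP1, MMP3 and MMP9, and wide 95% intervals limit the rest.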
